A study of Homo sapiens with 78 samples.

Results

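The 10 genes described here belong to the mesenchymal cytoskeleton and were followed through 78 single-cell total RNA libraries of 2 human cell lines and 2 reagent kits. The 10 genes were chosen by name, not by a threshold, and were VIM, TPM1, TPM2, CALD1, MYL9, FLNA, ACTN1, ACTN4, MAP1B and CAV1, out of 34290 genes with at least 1 estimated count in any well. The choice was made with earlier results of these data known. A375 is an adherent melanoma line and Jurkat (clone E6-1) is a T cell leukemia line that grows in suspension. Single live cells were sorted by FACS into tubes, A375 cells after staining for CD47 and into PBS, Jurkat cells after staining for CD81 and into lysis solution, so cell line, culture medium, antibody and sorting buffer cannot be told apart. The labels name no engineered allele and no treatment. Libraries were made with the Pico Input version of the SMARTer Stranded total RNA kit (#634413, 21 A375 and 18 Jurkat wells) or with the SMART-Seq Stranded Kit (#634444, 21 A375 and 18 Jurkat wells). The labels name no separate cultures, so each line within a kit was treated as 1 sample, no p-value was computed, and all intervals (95% confidence interval, CI) cover counting error only.

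Total estimated counts ranged from 909 to 2455700 per A375 well with #634413, from 1230 to 2567265 with #634444, and from 413959 to 1443975 per Jurkat well over both kits. A well was called intact if its total reached 25% of the median of all wells and if at least 50% of its counts lay on protein coding genes. By this rule 15 of 21 A375 wells of each kit and 18 of 18 Jurkat wells of each kit were intact, and all 12 other wells were A375 wells. Of 12 melanoma line markers, 6 were at least 4-fold higher in A375 in both kits, among them SOX10, CSPG4 and AXL, while the pigment genes PMEL, MLANA, TYR, TYRP1 and DCT did not reach 100 counts over all wells. Of 12 T cell markers, 11 were at least 4-fold lower in A375, among them CD3D, CD3E and ZAP70. Of all 15996 genes with at least 100 counts, 16.5% were higher and 6.61% lower by this limit. Summed melanoma line markers ranged from 208 to 3148 CPM (counts divided by the total of the wells and scaled to 1e6) in the intact A375 wells and from 0 to 51.2 CPM in the Jurkat wells.

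The cytoskeleton of a mesenchymal cell combines vimentin intermediate filaments with contractile actin bundles. Tropomyosins and caldesmon cover the actin filament, myosin light chains regulate the motor, filamin and the actinins crosslink filaments, microtubule-associated proteins stabilise microtubules, and caveolins shape small invaginations of the plasma membrane. White blood cells, in contrast, rely on a cortical actin network with its own set of crosslinkers and regulators.

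Several of the 10 genes are made in alternative forms that differ by short exons, and the exons by which the forms were told apart here are shown first. Coordinates are on GRCh38, and the sequences are those of the GENCODE v44 transcripts, 5′ to 3′ on the coding strand. TPM1 and TPM2, the genes of alpha- and beta-tropomyosin, each use 1 of 2 mutually exclusive coding exons of 76 bases. Those of TPM1 lie at chr15:63061198-63061273 (upstream) and chr15:63061713-63061788 (downstream), on the plus strand, and those of TPM2 lie at chr9:35685064-35685139 (upstream) and chr9:35684732-35684807 (downstream), on the minus strand. Capitals mark the bases that differ within a pair, 33 of 76 in TPM1 and 36 of 76 in TPM2.
TPM1 upstream exon: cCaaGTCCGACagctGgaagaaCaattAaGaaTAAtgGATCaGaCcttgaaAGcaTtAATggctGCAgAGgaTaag
TPM1 downstream exon: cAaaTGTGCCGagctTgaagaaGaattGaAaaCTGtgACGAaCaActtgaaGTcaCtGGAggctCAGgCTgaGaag
TPM2 upstream exon: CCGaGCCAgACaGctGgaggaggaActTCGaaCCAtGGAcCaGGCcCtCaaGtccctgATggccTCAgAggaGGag
TPM2 downstream exon: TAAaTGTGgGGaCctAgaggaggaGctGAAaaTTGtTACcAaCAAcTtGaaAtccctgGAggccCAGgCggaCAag

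The actinins ACTN1 and ACTN4 carry a calcium-binding EF hand region in which an exon of 81 bases (the non-muscle form of ACTN1) can be replaced by an exon of 66 bases (its smooth muscle form). In ACTN1 they lie at chr14:68878989-68879069 and chr14:68878458-68878523 on the minus strand, and in ACTN4 at chr19:38727946-38728026 and chr19:38728316-38728381 on the plus strand. Capitals mark the bases that differ between the 2 genes, 18 of 81 (77.8% identity) and 18 of 66 (72.7% identity).
ACTN1 81-base exon: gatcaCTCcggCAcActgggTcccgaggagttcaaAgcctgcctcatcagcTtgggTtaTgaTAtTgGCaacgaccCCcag
ACTN4 81-base exon: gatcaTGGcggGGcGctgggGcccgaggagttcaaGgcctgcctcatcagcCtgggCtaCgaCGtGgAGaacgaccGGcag
ACTN1 66-base exon: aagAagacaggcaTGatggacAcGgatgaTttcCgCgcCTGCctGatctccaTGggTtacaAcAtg
ACTN4 66-base exon: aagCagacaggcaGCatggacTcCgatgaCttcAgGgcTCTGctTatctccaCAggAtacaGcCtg

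ACTN4 has a further mutually exclusive pair of 86-base exons, at chr19:38710257-38710342 (upstream) and chr19:38711276-38711361 (downstream). They differ at 21 of 86 bases, given in capitals.
ACTN4 upstream 86-base exon: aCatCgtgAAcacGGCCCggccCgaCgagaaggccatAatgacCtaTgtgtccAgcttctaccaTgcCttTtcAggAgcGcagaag
ACTN4 downstream 86-base exon: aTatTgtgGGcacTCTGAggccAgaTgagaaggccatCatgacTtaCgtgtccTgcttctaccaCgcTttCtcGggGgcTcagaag

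The lines were first compared gene by gene. A gene was counted as higher or lower if its pooled CPM (counts summed over the wells of a line and kit) differed at least 4-fold in the same direction in both kits. TPM2, CALD1, ACTN4, MAP1B and CAV1 were higher in A375, which is 5 of 10 genes against 16.5% of the 15996 genes with at least 100 counts over all wells (2640 genes). None of the 10 was lower, against 6.61% of all genes (1057 genes). At a 2-fold limit 7 of 10 were higher, with ACTN1 and MYL9 added, against 25.2% of all genes, and 0 of 10 lower, against 14.8%. ACTN1 stood close to this limit with #634413, at a log2 ratio of 1.03 that became 0.996 with TMM factors and 0.55 with the mean of single-well CPM. The median log2 ratio of A375 over Jurkat was 3.99 over the 10 genes with #634413 and 2.53 with #634444, beside 0.17 and 0.19 over all 15996 genes. In these counts and medians a group with under 3 counts was set to the floor of 3. All 10 genes passed the minimum of 100 counts, but TPM2, CALD1, MYL9, MAP1B and CAV1 had fewer than 100 counts over all Jurkat wells and passed through A375 alone. Since the 10 genes were also chosen with earlier results of these data known, their counts and medians beside all genes are a description and not a test.

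**Figure D1:**
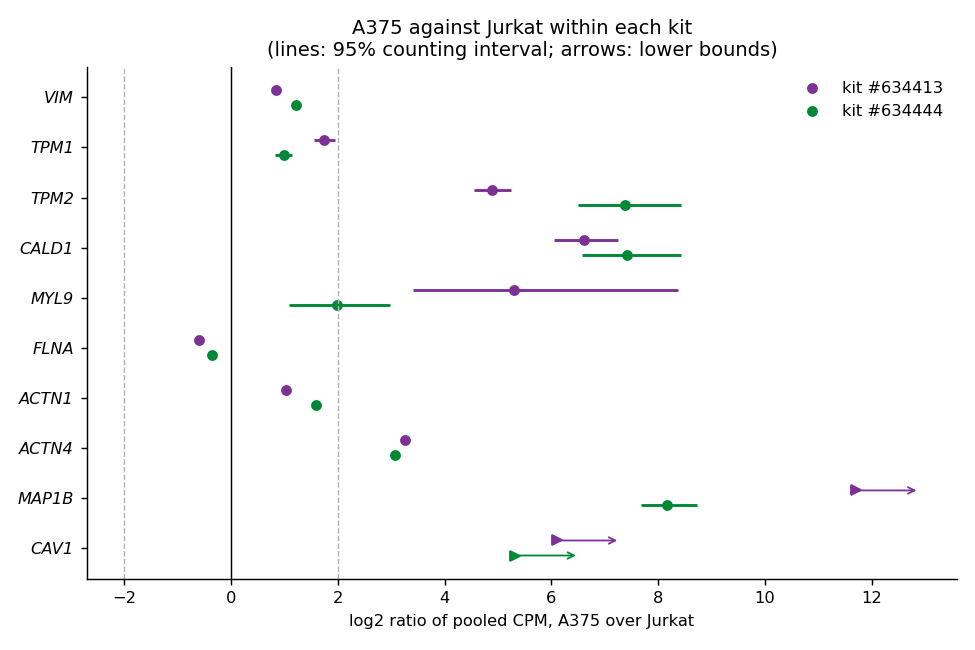
Log2 ratio of pooled CPM, A375 over Jurkat (x axis), for each of the 10 genes (y axis) in kit #634413 (purple) and kit #634444 (green), with 95% counting intervals as lines. Arrows mark ratios where no Jurkat count was seen. Their points, drawn as lower bounds, are ratios against the floor of 3 counts, and the lower 95% limits lie below them. Dashed lines mark 4-fold. MAP1B, CALD1, TPM2, CAV1 and ACTN4 lie beyond 4-fold in both kits, and FLNA lies below 0 in both.

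VIM, the gene of vimentin (chr10:17228241-17237593), was the most abundant of the 10 genes per length in both lines. Its CPM over the intact A375 wells had a lowest value of 457, a median of 831 and a highest value of 1034 with #634413, and 535, 900 and 1978 with #634444. In the Jurkat wells the corresponding values were 168, 398 and 870 with #634413 and 252, 385 and 795 with #634444. The ranges overlapped in both kits although the A375 medians were higher. Pooled VIM was 779 CPM [767, 792; 95% CI] in A375 and 433 [424, 443; 95% CI] in Jurkat with #634413, a 1.80-fold difference [1.75, 1.85; 95% CI]. With #634444 it was 1023 and 439 CPM, a 2.33-fold difference [2.26, 2.40; 95% CI]. VIM was found in all 66 intact wells, so the transcript of this classic mesenchymal filament protein was present in every T cell leukemia well as well. The full-length transcript VIM-201 held 87.93% of VIM counts in A375 and 87.96% in Jurkat.

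The tropomyosins are rod-shaped coiled coils that lie along the actin filament. TPM2 (chr9:35681992-35690056) was found in 30 of 30 intact A375 wells, with 14.4, 107 and 261 CPM as lowest, median and highest value with #634413 and 22.3, 108 and 318 CPM with #634444. Only 5 of 18 Jurkat wells with #634413 and 3 of 18 with #634444 held a TPM2 count, and their highest values were 40.2 and 5.69 CPM. The ranges overlapped with #634413 and did not overlap with #634444, and the share of all genes without overlap within a kit was not counted. Pooled TPM2 was 114 against 3.87 CPM with #634413, a 29.6-fold difference [23.3, 38.1; 95% CI], and 115 against 0.695 CPM with #634444, a 166-fold difference [89.8, 346; 95% CI]. The Jurkat values rested on few counts. Replicate 8 of Jurkat with #634413 held 36 of the 70 Jurkat counts of that kit, and without it the fold was 57.9. In #634444, replicate 16 held 7 of 10 counts, and without it the fold was 505.

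TPM1 (chr15:63042620-63071915) did not reach 4-fold. It was found in 30 of 30 intact A375 wells, from 8.65 over a median of 38.1 to 124 CPM with #634413 and from 15.3 over 60.6 to 173 CPM with #634444. In Jurkat 11 of 18 wells with #634413 (highest 46.4 CPM) and 15 of 18 wells with #634444 (highest 140 CPM) had TPM1 counts. The lines thus overlapped broadly. Pooled TPM1 was 3.36-fold higher in A375 with #634413 [2.93, 3.85; 95% CI] and 1.98-fold higher with #634444 [1.77, 2.23; 95% CI]. The size depended on the summary, with 1.16-fold by the mean TPM with #634444 and 37.25-fold by the median CPM over intact wells with #634413.

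CALD1 (chr7:134744252-134970729) encodes caldesmon, an actin-binding inhibitor of the myosin motor. Its intact A375 wells ranged from 78.1 over 123 to 293 CPM with #634413 and from 64.2 over 132 to 214 CPM with #634444. Jurkat counts were seen in 1 of 18 wells with #634413 (19.8 CPM) and in 3 of 18 wells with #634444 (at most 12.4 CPM). CALD1 was the only one of the 10 genes for which every intact A375 well lay above every intact Jurkat well, as for 0.838% of all genes (134 of 15996). The reverse held for 0 of the 10 genes, against 0.306% of all genes. The separation was lost when the deposited TPM, all wells, or wells chosen by depth alone were used. Pooled CALD1 was 136 against 1.38 CPM with #634413, a 98.1-fold difference [66.3, 152; 95% CI], and 131 against 0.764 CPM with #634444, a 171-fold difference [95.3, 343; 95% CI]. All 25 Jurkat counts with #634413 came from replicate 16, and without it the fold against a floor of 3 counts was 761. Without replicate 12, which held 7 of 11 Jurkat counts with #634444, the fold was 452. By the mean TPM it was 27.7-fold and 20.03-fold higher with #634413 and #634444.

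MYL9 (chr20:36541497-36551447) encodes a regulatory light chain of smooth muscle and non-muscle myosin and was scarce in both lines. It was found in 7 of 15 and 6 of 15 intact A375 wells with #634413 and #634444 (highest 20.1 and 36.7 CPM) and in 1 of 18 Jurkat wells with each kit (2.28 and 29.1 CPM). Pooled MYL9 was 4.36 against 0.11 CPM with #634413, where Jurkat had 2 counts, a ratio of 39.5 [10.6, 332; 95% CI], or 26.3 with Jurkat set to the floor of 3 counts. With #634444 it was 3.58 against 0.903 CPM, a ratio of 3.96 [2.13, 7.93; 95% CI], which missed the 4-fold limit. All 13 Jurkat counts with #634444 lay in replicate 9, and without this well the fold against the floor of 3 counts was 16.6. MYL9 also passed 4-fold with intact wells alone, with protein coding counts as denominator and with the mean TPM.

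FLNA (chrX:154348524-154374634) encodes filamin A, a large crosslinker of actin that is used by adherent cells and white blood cells alike, and it was the only one of the 10 genes with more counts in Jurkat. Over intact A375 wells it ranged from 98.0 over 276 to 817 CPM with #634413 and from 162 over 596 to 1561 CPM with #634444. Over Jurkat wells it ranged from 4.51 over 542 to 1584 CPM and from 6.37 over 631 to 1454 CPM. The ranges overlapped almost entirely. Pooled FLNA was 1.51-fold higher in Jurkat with #634413 and 1.275-fold higher with #634444 (A375 over Jurkat 0.662 [0.643, 0.682; 95% CI] and 0.785 [0.762, 0.808; 95% CI]), differences beyond counting error but small beside the spread between wells. The size depended on the summary. With #634413 A375 over Jurkat ran from 0.486 (mean of single-well CPM) to 0.701 (protein coding counts as denominator). With #634444 it ran from 0.579 (mean TPM) to 0.945 (median CPM over intact wells).

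The actinins crosslink antiparallel actin filaments. ACTN4 (chr19:38647649-38731589) was the one of the pair with the larger contrast. Its intact A375 wells ranged from 387 over 874 to 1300 CPM with #634413 and from 254 over 865 to 1396 CPM with #634444, and its Jurkat wells from 0 over 77.2 to 274 CPM and from 15.1 over 93.4 to 211 CPM. The A375 wells lay above all Jurkat wells within each kit, and only the lowest A375 well of #634444 lay under the highest Jurkat well of #634413. How many of all genes separate in this way within a kit was not counted. Pooled ACTN4 was 9.61-fold higher in A375 with #634413 [9.13, 10.1; 95% CI] and 8.43-fold higher with #634444 [7.98, 8.91; 95% CI], and 5.37-fold with #634413 by the mean TPM. ACTN1 (chr14:68874128-68979440) was 2.045-fold higher with #634413 [1.955, 2.14; 95% CI] and 3.04-fold higher with #634444 [2.88, 3.20; 95% CI]. Its intact A375 wells ranged from 138 over 324 to 598 CPM and from 132 over 361 to 776 CPM. Its Jurkat wells ranged from 21.2 over 141 to 430 CPM and from 4.06 over 97.2 to 302 CPM, so that the lines overlapped.

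MAP1B (chr5:72107234-72209565) encodes a microtubule-associated protein best known from growing axons. It was found in 14 of 15 intact A375 wells with #634413 (median 536, highest 1176 CPM) and in 15 of 15 with #634444 (lowest 102, median 418, highest 1333 CPM). In Jurkat it was found in 0 of 18 wells with #634413 and in 3 of 18 wells with #634444, at no more than 21.2 CPM. A single intact A375 well with #634413 had no MAP1B count and so lay level with the Jurkat wells. Pooled MAP1B was 551 CPM in A375 with #634413 against 0 in Jurkat, and was 3326-fold higher against a floor of 3 counts in the group. The lower 95% limit of this fold was 2705. With #634444 it was 641 against 2.22 CPM, a 288-fold difference [204, 422; 95% CI]. Without Jurkat replicate 7 or 12, which held 15 and 12 of the 32 counts, the fold was 512 and 443. By the mean TPM it was 97.1-fold higher with #634444, and 191.5-fold higher with #634413 against the floor. The A375 mean with #634444, 208 TPM, rested on 1 well at 3635 TPM that was not intact. The intact wells of that group had a mean of 47.5 TPM and reached at most 104 TPM.

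CAV1 (chr7:116524994-116561179), the gene of caveolin-1, had no count in 36 Jurkat wells. It was found in 6 of 15 intact A375 wells with #634413 (highest 113 CPM) and in 10 of 15 with #634444 (highest 28.4 CPM). Pooled CAV1 was 11.4 CPM and 8.38 CPM in A375, at least 68.6-fold and at least 40.2-fold higher than the floor of 3 Jurkat counts. Much of it lay in single wells. Replicate 5 of A375 with #634413 had 86 of 206 counts, and without it the bound was 41.7-fold. Replicate 21 with #634444 had 73 of 124 counts, and without it the bound was 19.99-fold. CAV1 no longer passed the limit with the median CPM over intact wells. By the mean TPM it was 16-fold and 20.98-fold higher against the floor with #634413 and #634444. By the mean of single-well CPM it was 56.7-fold and 26.6-fold higher.

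**Figure D2:**
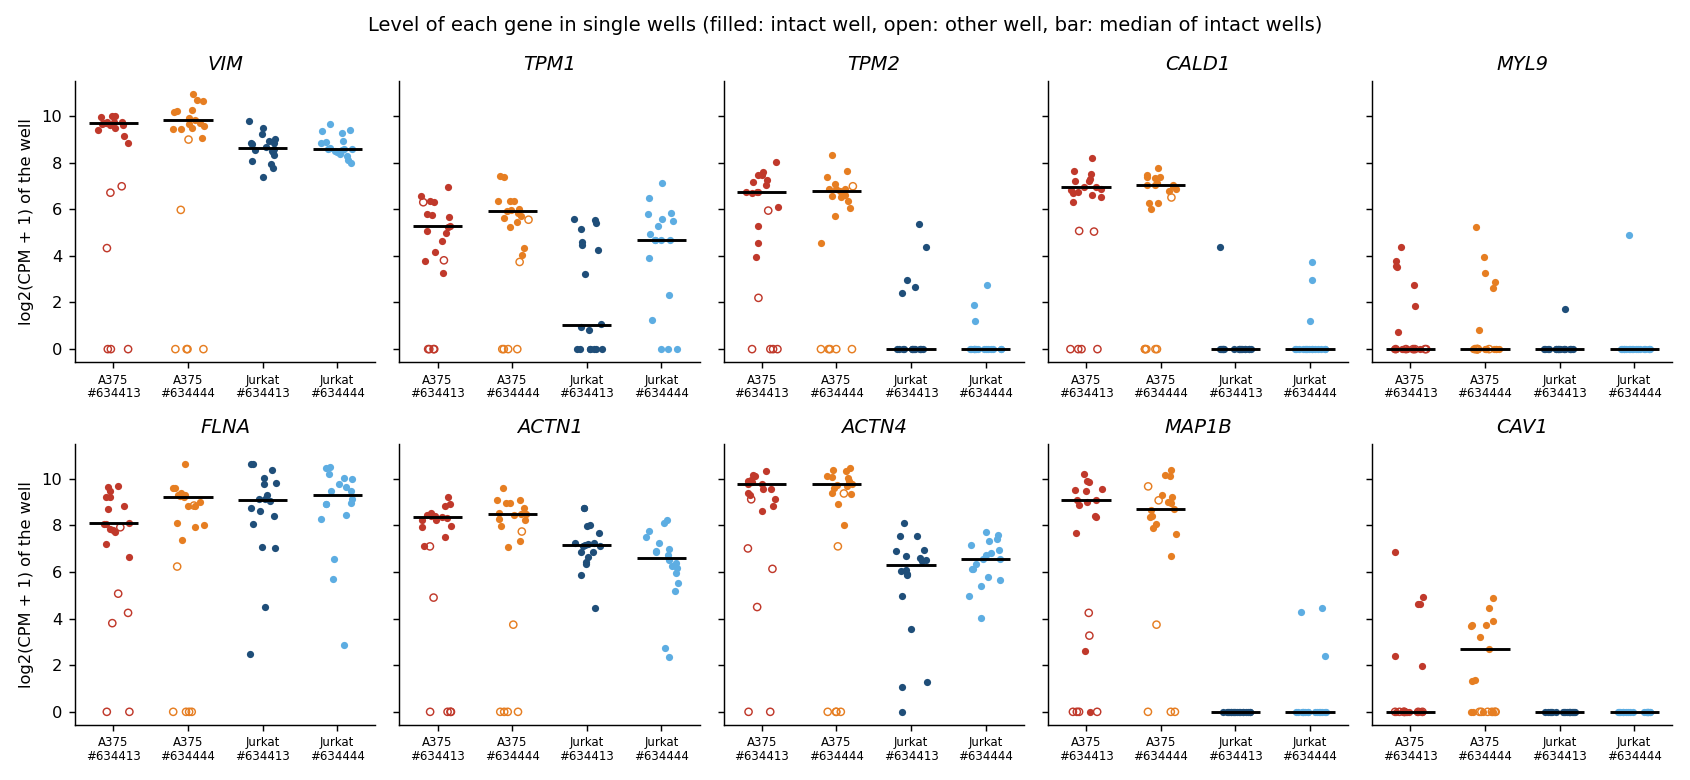
Level of each of the 10 genes in single wells as log2(CPM + 1) (y axis) by line and kit (x axis). Filled points are intact wells, open points other wells, and bars medians of intact wells. CAV1 and MAP1B lie at 0 in nearly all Jurkat wells, TPM2 and CALD1 in most, and FLNA and VIM are seen in all intact wells of both lines.

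Levels were compared between genes per transcript length, with the deposited TPM summed over the transcripts of a gene. In the 30 intact A375 wells of both kits the order of the median TPM was VIM (367), ACTN4 (334), ACTN1 (143), FLNA (77.98), TPM2 (70.5), CALD1 (44.04), MAP1B (43.6), TPM1 (42.9), CAV1 (0.721) and MYL9 (0). In the 36 Jurkat wells it was VIM (168), FLNA (133), ACTN1 (37.5), ACTN4 (34.7) and TPM1 (9.31), with the other 5 genes at a median of 0. The ranges over wells of all neighbours in both orders overlapped. ACTN4 came above FLNA in A375 and below it in Jurkat.

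The share of wells with a count was checked at equal depth, with the 66 intact wells thinned to 200000 counts each (12 wells left out). VIM was then found in all 66 wells, and TPM1, TPM2, CALD1, FLNA, ACTN1 and ACTN4 in all 30 A375 wells. MAP1B was found in 29, CAV1 in 14 (16 unthinned) and MYL9 in 11 (13 unthinned) of 30 A375 wells. In the 36 Jurkat wells, thinned counts were found for MAP1B in 3, CALD1 in 3, TPM2 in 6 (8 unthinned), MYL9 in 1 and CAV1 in 0 wells. Melanoma line markers had unthinned counts in 5 of 18 Jurkat wells with #634413 and in 10 of 18 with #634444. MITF made up 2.65 of their 3.26 summed CPM in Jurkat with #634413 and 1.04 of 3.82 with #634444. TPM1 was found in 24 Jurkat wells (66.7%) and FLNA in 34 (94.4%). A well of A375 held a median of 9 of the 10 genes in both kits if it was intact, and a Jurkat well a median of 5. The 12 A375 wells that were not intact held a median of 4.5 genes with #634413 and of 0 with #634444. In these wells MYL9 and CAV1 were not seen, and the sum of the 10 genes ranged from 0 to 631 CPM and from 0 to 2634 CPM, against 2245 to 5449 CPM in the intact A375 wells.

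The kits were compared within each line. In A375 0 of 10 genes differed 2-fold between kits, against 17.6% of all genes, and the ratios of #634444 over #634413 ran from 0.737 [0.585, 0.925; 95% CI] for CAV1 to 1.35 [1.31, 1.40; 95% CI] for FLNA. Without replicate 21 of #634444 CAV1 was 2.73-fold higher with #634413, and without replicate 5 of #634413 it was 1.21-fold higher with #634444. VIM was 1.31-fold higher with #634444 [1.28, 1.34; 95% CI]. TPM2, CALD1 and ACTN4 were at 1.005, 0.964 and 0.979, with intervals that included 1. In Jurkat 4 of 10 genes differed, against 28% of all genes. TPM1 was 2.003-fold higher with #634444 [1.72, 2.34; 95% CI], close to the 2-fold limit. The retained-intron transcript TPM1-215, seen in 7 Jurkat wells, held 27.4% of its counts with #634444 and 0.361% with #634413. TPM2 was 5.57-fold higher with #634413. MAP1B was 13.4-fold higher with #634444 against the floor of 3 counts, with a lower 95% limit of 10.3. MYL9 was 8.17-fold higher with #634444 [1.85, 74.6; 95% CI], or 5.45-fold against the floor of 3 counts. TPM2, MAP1B and MYL9 each had 70 counts or fewer per group, and their ratios rested on single wells. Without replicate 8 of #634413 TPM2 was 2.845-fold higher, and without replicate 16 of #634444 it was 16.97-fold higher. Without replicate 7 or 12 of #634444 the fold of MAP1B against the floor was 7.55 or 8.73. Without replicate 9 of #634444 MYL9 had at most 3 counts in either kit. CALD1, at 1.81-fold higher with #634413, passed 2-fold in opposite directions without single wells, at 4.29-fold higher with #634444 without replicate 16 of #634413 and at 4.775-fold higher with #634413 without replicate 12 of #634444. VIM, FLNA and ACTN4, the genes with 1428 or more Jurkat counts per kit beside ACTN1, differed by no more than 1.14-fold, and ACTN1 was 1.25-fold higher with #634413.

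Isoform use was read from protein coding transcripts, put into classes by the exons they contain. A single cell often gave all of its counts for a gene to 1 class, so shares were pooled over the wells of a line. The exon structure came from GENCODE v44 while the counted targets came from Ensembl v91, and targets too short for their annotated coding sequence were left out (ACTN4-203 among them). Reads that fit several transcripts were divided by Kallisto, an uncertainty that the intervals do not hold.

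For TPM1 the first coding exon sets the length of the protein, with the upstream exon in the long forms and the internal exon in the short forms. In A375 the internal first exon (chr15:63048576-63048707) held 89.7% of classed counts [87.7, 91.3; 95% CI] and the upstream one (chr15:63042830-63042943) the other 10.4%. In Jurkat the internal exon held 99.7% [98.2, 99.99; 95% CI] of 309 counts, with a single count on the upstream one. The upstream form was seen in 8 of 34 A375 wells with TPM1 counts, and 1 well held 39.97% of it. Without that well its share in A375 was 6.56%. The last coding exon in A375 was the downstream 80-base exon (chr15:63071090-63071169) for 45.8% [42.9, 48.7; 95% CI], the 71-base exon (chr15:63069870-63069940) for 42.2% [39.5, 45.1; 95% CI] and the upstream 80-base exon (chr15:63064064-63064143) for 11.98% [10.22, 13.99; 95% CI]. In Jurkat the 71-base exon held 73.8% with #634413 and 39.7% with #634444, pooled over all wells. Only 3 and 5 Jurkat wells reached 20 classed counts, and among them the share ran from 0% to 100% in both kits. Of the 76-base pair shown above, the upstream exon held 69.4% [66.8, 71.98; 95% CI] in A375 and 45.9% [41.3, 50.6; 95% CI] in Jurkat by counts, but 74.82% and 73.98% by TPM. The difference between the lines by counts was thus not seen per length. TPM1-208, TPM1-204 and TPM1-203, all with the internal first exon, were the main A375 transcripts (20.9%, 14.2% and 13.5% of TPM1 counts). In Jurkat they were TPM1-204 (32.02%), TPM1-223 (21.4%) and the retained-intron transcript TPM1-215 (16.9%, nearly all of it with #634444).

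For TPM2 both 76-base exons were in use in A375. The upstream exon held 48.8% of classed counts [47.1, 50.4; 95% CI], 55.6% with #634413 [53.4, 57.8; 95% CI] and 40.1% with #634444 [37.8, 42.6; 95% CI]. Over single A375 wells with at least 20 counts the share ran from 28.1% to 78.6% with #634413 (12 wells) and from 0% to 77.1% with #634444 (16 wells). The wells of the 2 kits overlapped across most of their range. By TPM the upstream exon held 28.4%, since its target TPM2-202 (2147 bases) is longer than TPM2-201 (1018 bases), so which of the exons prevailed depended on the unit. Jurkat had 75.8 classed counts, with 48.8% on the upstream exon, but 36 of the 38.84 counts on the downstream exon lay in replicate 8 of #634413. Without this well 92.9% of the 39.84 classed counts lay on the upstream exon.

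For CALD1 the central exon exists in a long form (chr7:134932988-134934077, 1090 bases), which encodes the repeat of the heavy caldesmon of smooth muscle, and in a short form (403 bases), which gives the light caldesmon of other cells. In A375 the short form held 85.8% of classed counts [84.6, 86.9; 95% CI] and the long form 14.2% [13.05, 15.34; 95% CI]. The long form held 10.6% with #634413 and 19.1% with #634444. It was seen in 19 of 33 A375 wells with CALD1 counts, with a median of 6.94% and a range of 0% to 86.5% over 28 wells. The light form rested on CALD1-203 (26.01% of all CALD1 counts), CALD1-206 (15.9%) and CALD1-209 (14.8%), and the heavy form on CALD1-201 (11.8%, 793 residues). A further 11.3% lay on CALD1-210, a nonsense-mediated decay transcript that was not classed. The upstream first coding exon (chr7:134867734-134867804) held 44.98% [43.4, 46.6; 95% CI] and the downstream one (chr7:134891621-134891673) 55.02%, but by TPM it was 57.2% and 42.8%. In Jurkat 0 CALD1 counts lay on any classed coding transcript. The retained-intron transcript CALD1-215 held 90.4% of the 36 Jurkat counts, in 2 wells.

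For ACTN1 the 81-base exon prevailed in both lines, with 78.8% of classed counts in A375 [77.9, 79.6; 95% CI] and 70.1% in Jurkat [68.6, 71.6; 95% CI]. The 66-base exon held 16.3% [15.5, 17.01; 95% CI] and 24.7% [23.3, 26.1; 95% CI], and transcripts with both exons held 4.97% and 5.19%. The 66-base share was 22.5% and 10.7% in A375 with #634413 and #634444, and 25.4% and 23.7% in Jurkat. The lines were thus closer with #634413 than with #634444, and single wells with at least 20 classed counts ran from 0% to 100% in both lines. ACTN1-201 (892 residues) was the main transcript, with 63.01% of ACTN1 counts in A375 and 54.01% in Jurkat, and ACTN1-204 held 10.2% in Jurkat.

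Pooled over wells, ACTN4 differed between the lines in its EF hand exon. Of 15950 classed A375 counts 99.96% lay on the 81-base exon and 5.76 counts, in 2 wells, on the 66-base exon (0.036% [0.014, 0.082; 95% CI]). In Jurkat the 66-base exon held 24.1% [21.9, 26.5; 95% CI] of 1365 classed counts, 40.9% with #634413 [37.2, 44.7; 95% CI] and 7.19% with #634444 [5.38, 9.41; 95% CI]. These counts belonged to 1 transcript, ACTN4-204 (906 residues), which also carries the downstream 86-base exon shown above. It was found in 8 of 18 Jurkat wells with #634413, where 1 well held 30.8% of its counts, and in 4 of 18 with #634444, where 1 well held 75.3%. Against ACTN4-201, the full-length form with the upstream 86-base exon and the 81-base exon, it made up 42.04% in Jurkat [38.6, 45.6; 95% CI], with 71.8% in #634413 [67.05, 76.21; 95% CI] and 12.5% in #634444 [9.39, 16.2; 95% CI], and 0.052% in A375 [0.020, 0.12; 95% CI]. Without Jurkat replicate 2 of #634444 the 12.5% fell to 3.57%, and the 66-base share of that kit to 1.93%. With #634413, ACTN4-201 was seen in 2 of 18 Jurkat wells, and replicate 11 held 94.5% of its counts. Without replicate 11 the share of ACTN4-201 in this pair fell from 28.2% to 2.13%. Over the 19 Jurkat wells with at least 20 classed counts the 66-base share ran from 0% to 100%, with a median of 0.294%. By TPM the 66-base exon held 19.2% in Jurkat and 0.083% in A375. Classed transcripts covered 57.2% of ACTN4 counts in A375 and 44.9% in Jurkat. Much of the rest lay on the retained-intron transcript ACTN4-209 (26.02% and 18.56%) and on ACTN4-203 (12.5% and 23.7%). ACTN4-202, a shorter form with the 81-base exon (692 residues), held 17.3% and 19.2%.

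Of the other genes, FLNA used its 24-base exon (chrX:154357251-154357274) in 91.9% of classed A375 counts [91.4, 92.4; 95% CI] and 88.1% of Jurkat counts [87.6, 88.6; 95% CI]. The share was 92.2% and 91.6% in A375 and 82.6% and 93.6% in Jurkat with #634413 and #634444, so the order of the lines differed between kits. FLNA-203 (2620 residues) held 65.9% of FLNA counts in A375 and 66.5% in Jurkat. For CAV1 in A375, the beta form (147 residues) held 79.2% of 291 classed counts and the alpha form (178 residues) 20.8%, pooled over all wells, of which 3 reached 20 such counts. Replicate 5 of #634413 held 41.1 of the 60.6 alpha counts, and without it the alpha share was 9.50%. MAP1B-201 (2468 residues) held 96.4% of MAP1B counts in A375 and 62.5% of the 32 counts in Jurkat, where MAP1B-202, a transcript without a defined coding sequence, held the other 37.5%, all 12 counts in 1 well. MYL9-201 (172 residues) held 69.1% of the 132 MYL9 counts in A375 and MYL9-202 (118 residues) 30.9%.

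**Figure D3:**
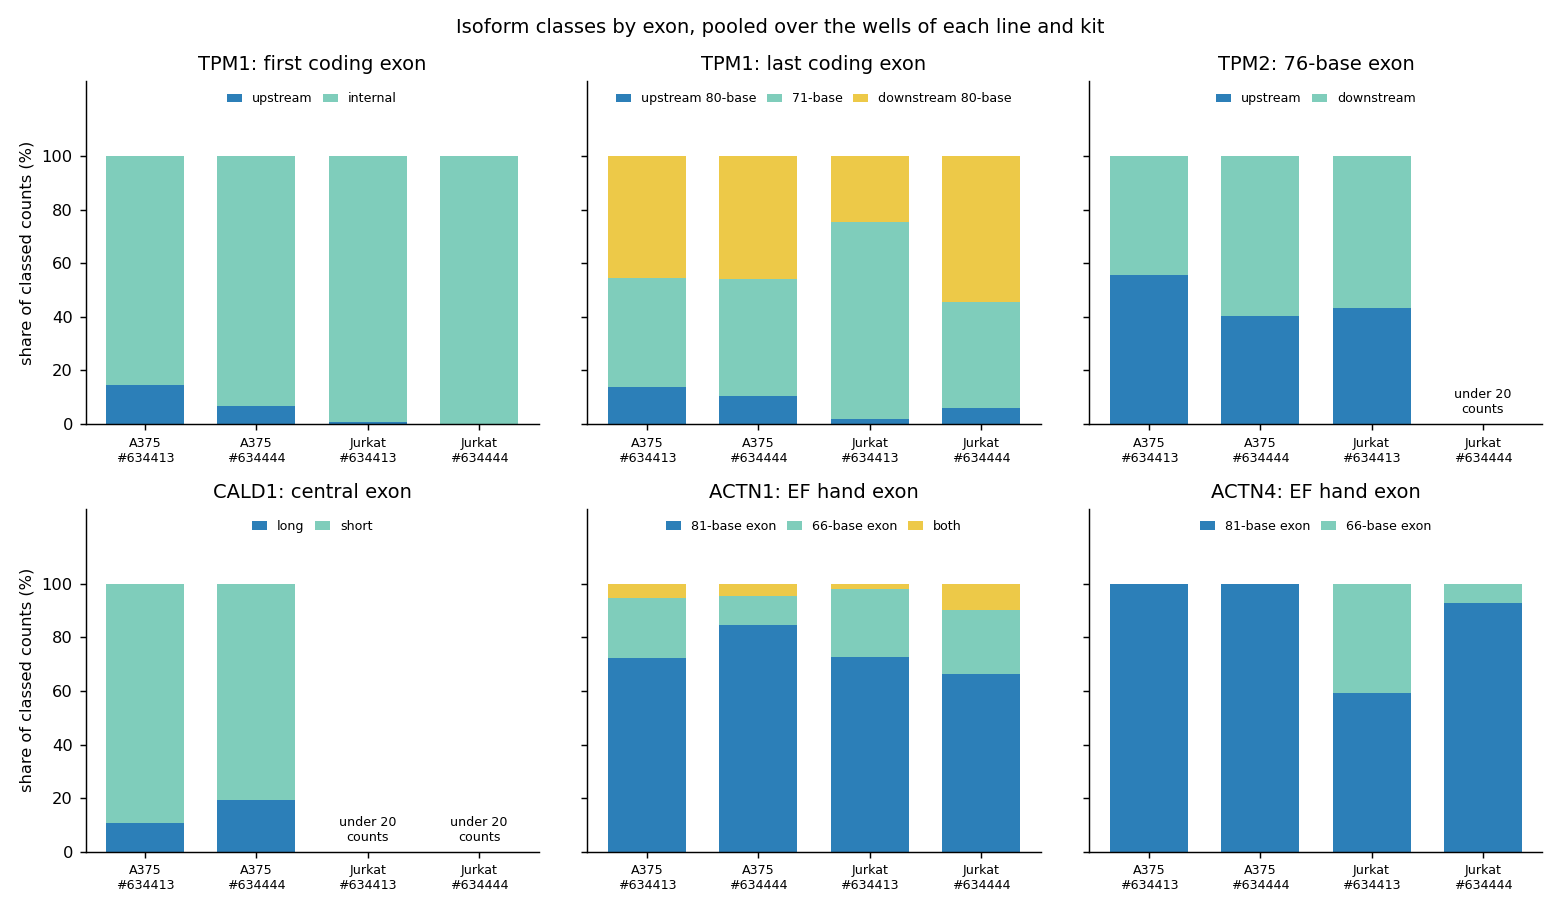
Share of classed counts (y axis, %) on each exon class of TPM1, TPM2, CALD1, ACTN1 and ACTN4, pooled over the wells of each line and kit (x axis), with groups of under 20 classed counts marked as such. The 66-base exon of ACTN4 takes 40.9% and 7.19% in Jurkat and is not visible in A375.

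The partners of the 10 genes were examined as lists. Of 41 actin partners 38 passed the minimum, 4 were higher in A375, 1 was lower, and 33 differed by less than 4-fold or not in both kits. Both directions lay below the shares of all genes, 16.5% higher and 6.61% lower. The focal adhesion genes VCL (147 and 165 CPM in A375, 8.01 and 10.1 CPM in Jurkat with #634413 and #634444) and PXN (215 and 162 against 15.5 and 8.34 CPM) were higher, as was CNN3, the gene of the actin-binding calponin 3 (24.2 and 25.3 CPM against 0). The tropomyosins TPM3 and TPM4 went the other way from TPM2, with 355 and 297 CPM in A375 against 497 and 448 in Jurkat for TPM3, and 494 and 467 against 602 and 631 CPM for TPM4, under 4-fold. TPM3 and TPM4 were singled out after their values had been seen, as was ACTN2, the muscle actinin and the other higher gene (7.51 and 1.93 against 0 and 0.278 CPM). The median log2 ratio of the list was -0.31 with #634413 and -0.46 with #634444. ACTG2, the enteric smooth muscle actin, was lower in A375, with 0.552 and 0.473 CPM against 7.90 and 2.92 CPM.

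Of 14 intermediate filament genes 9 passed, 7 were higher in A375 and 1 was lower, against 16.5% and 6.61% of all genes. LMNA, the gene of lamin A/C, had 533 and 502 CPM in A375 against no whole count and 2.01 CPM in Jurkat, NES (nestin) 403 and 209 CPM against 0, and KRT18, a keratin of simple epithelia, 196 and 187 CPM against 0. INA, a neuronal filament gene, had 0 in A375 against 33.3 and 10.5 CPM in Jurkat. VIM, at 1.80-fold and 2.33-fold, did not reach the 4-fold limit. Of the 14 genes, 4 were under 1 CPM in all 4 groups.

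Of 19 microtubule genes 18 passed, 3 were higher in A375 and 5 lower. The higher genes lay near the share of all genes (16.5%), and the lower genes above it (6.61%). MAP1A, the paralog of MAP1B, was the reverse of it, with 15.5 and 14.2 CPM in A375 against 299 and 323 CPM in Jurkat. The tubulin binder STMN1 (51.95 and 64.99 against 779 and 750 CPM) and the tubulin TUBB (232 and 232 against 1973 and 1947 CPM) were also lower in A375. TUBB6, DPYSL3 and MAP7 were higher, each at 36.2 CPM or less.

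Of 11 caveola genes 9 passed, 4 were higher in A375 and 0 lower, against 16.5% and 6.61% of all genes. CAVIN1, the coat protein of caveolae, had 110 and 104 CPM in A375 against 0.166 and 0 CPM in Jurkat, CAVIN3 13.7 and 15.1 CPM against 0, and CAV2 6.76 and 7.39 CPM against 0.0958 and 0.139 CPM. CAV1 itself, at 11.4 and 8.38 CPM, was thus below CAVIN1 in counts. Of 18 leukocyte cytoskeleton genes 17 passed, 14 were lower in A375 and 0 higher, against 6.61% and 16.5% of all genes. The actin bundler LCP1 (0 and 0.203 against 1307 and 1174 CPM) and the coronin CORO1A (0.166 and 0.0676 against 336.5 and 318 CPM) were among the genes with the largest differences.

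**Figure D4:**
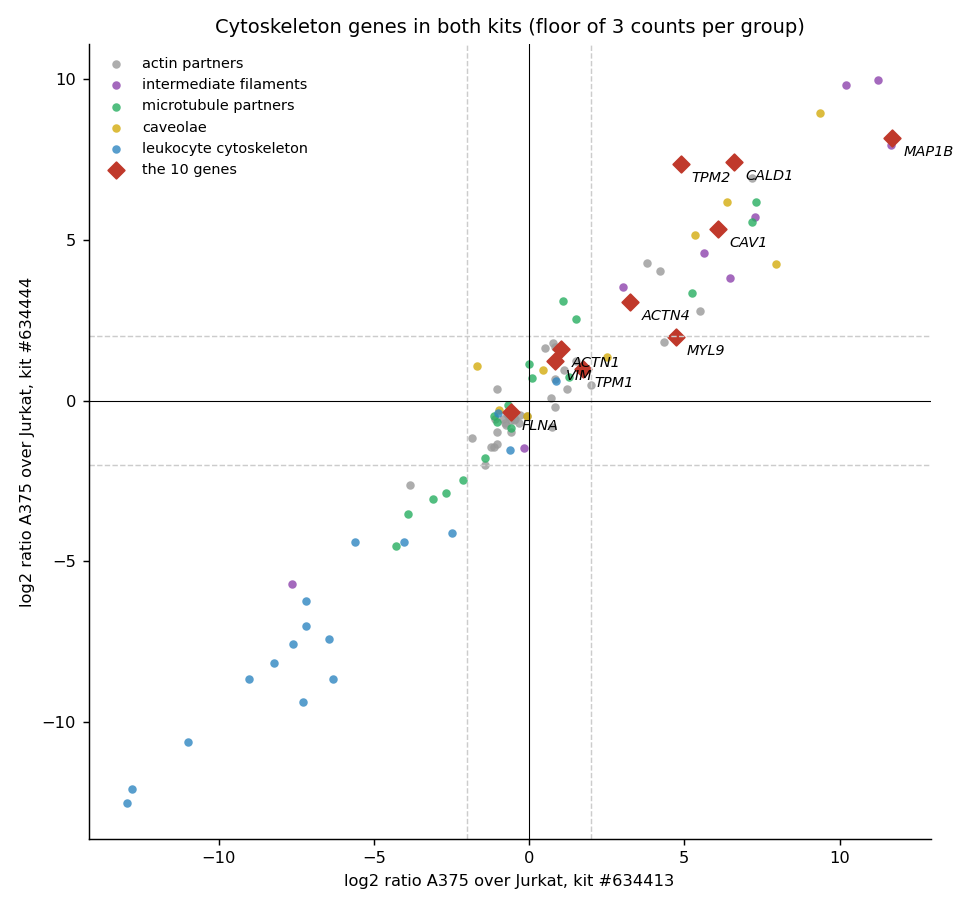
Log2 ratio of pooled CPM, A375 over Jurkat, with kit #634413 (x axis) and kit #634444 (y axis), for the 10 genes (red diamonds, labelled) and the partner genes with at least 100 counts, coloured by list, with a floor of 3 counts per group. Dashed lines mark 4-fold. The 4 caveola genes that passed the limit lie with CAV1 in the upper right, the other 5 of 9 do not, and leukocyte cytoskeleton genes fill the lower left.

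Markers of other cell types that use this gene set were measured in the same wells, beside 16.5% of all genes higher in A375 and 6.61% lower. Of 9 fibroblast markers 2 passed the minimum and 1, PDGFRB (9.83 and 7.36 CPM against 0.221 and 0 CPM), was higher in A375, and their summed CPM ranged from 0 to 45.1 in the intact A375 wells and from 0 to 67.4 in Jurkat, with COL3A1 at 0 in all groups. Of 8 smooth muscle markers 4 passed and 0 were higher, with summed values from 0 to 168 CPM and from 0 to 90.1 CPM and LMOD1 at 0. Of 9 epithelial markers 4 passed and KRT18, KRT8 and CLDN4 were higher, while KRT5 and KRT19 were at 0. The keratin genes KRT8 and KRT18 stand on both the epithelial and the filament list.

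Over the 30 intact A375 wells, centred within kit, the 10 genes varied with little relation to each other. Spearman's correlation over the 45 pairs ran from -0.25 to 0.38 with a median of 0.062, and over the 28 pairs of the 8 genes with a median of at least 50 CPM the median was 0.076. Library depth differed between these wells, from 398251 to 2455700 counts with #634413 and from 327162 to 2567265 with #634444. The mean of the standardized levels of the 10 genes had a Spearman's correlation of 0.14 with the total count. Of 3472 other genes with a median of at least 50 CPM, those with levels most like this mean were ANPEP (0.68), EMP1 (0.67), RBL1 (0.66), CCND1 (0.65) and ARHGEF11 (0.62), the highest of 3472 values with a median of 0.0073. These are descriptions over 30 wells without a test.

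The start sites of the 10 genes were searched for the CArG box, the binding motif of serum response factor, a regulator of contractile genes, which reads the same way on both strands. RefSeq promoter windows on GRCh38.p14, from 250 bases upstream to 50 downstream of the start, were found for 9 of the 10 genes (20 windows), and 2 windows held the motif, against 1.29% of 35116 windows of all genes. They are shown with the motif in capitals, at chrX:154374699-154374748 for FLNA, 94 bases upstream of the start of the gene, and at chr14:68977708-68977757 for ACTN1, both on the minus strand. The ACTN1 window belongs to an alternative RefSeq start 1874 bases inside the gene span given above, and the motif lies 171 bases upstream of that start.
FLNA: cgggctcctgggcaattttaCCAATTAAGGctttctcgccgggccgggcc
ACTN1: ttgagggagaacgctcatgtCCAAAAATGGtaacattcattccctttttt
FLNA and ACTN1 were among the 5 genes that did not differ by 4-fold in both kits. SRF, the gene of this factor, chosen after its value had been seen, was at 43.7 and 37.2 CPM in A375 and at 89.5 and 94.4 CPM in Jurkat.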

How the data were processed

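Single A375 and Jurkat cells were profiled by total RNA sequencing in 78 wells. The authors trimmed the reads, quantified Ensembl v91 transcripts with ERCC spikes with Kallisto 0.43.1 in stranded mode, and deposited expected counts (estimated counts, not normalized). The authors also deposited TPM values from the same run. Counts and TPM were summed to genes with GENCODE v44, and 16.5% of counts lay in rows without a gene. CPM used all counts without ERCC. Since each sample is 1 cell and no cultures are named, counts were pooled per line and kit, with exact 95% binomial intervals. PCR reads without molecular identifiers are not independent molecules, so intervals cover counting error only. Genes needed at least 100 counts, and a floor of 3 counts per group was used. Of 3003 pairs of wells, 0 were identical. Scaling factors came from edgeR 4.0.16 and DESeq2 1.42.0 as alternatives, with no test. Computation used Python 3.11.15.

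The members and gene lists were chosen with earlier results of these data known. The rule for named genes took the 10 members, at most 3 genes per list and direction past 4-fold in both kits, the 5 genes most correlated with the members, and transcripts with at least 10% of a gene. Isoform classes required a target at least as long as its coding sequence, a rule set after the files had been seen. Ends of targets may differ between the annotations.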

Additional observations from a re-analysis of the deposited data

How the results depend on the processing

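The number of the 10 genes at least 4-fold higher in A375 was 5, and ran from 4 to 7 over the alternatives, with MYL9 added under protein coding denominators, mean TPM or intact wells alone, and CAV1 lost under medians or a minimum of 1000 counts. None was lower under any alternative. Leaving out single wells, an alternative chosen after seeing the data, as it was for isoform shares and kits, gave 5 to 6. Of 137 log2 ratios of the 10 genes under alternatives, 84 stayed within the counting interval, 53 moved outside it and 0 reversed. The median over all genes shifted by -0.15 and -0.18 with mean TPM, by -0.32 and -0.35 with the mean of single-well CPM, and by 1.004 and 0.378 with medians over intact wells. Among all genes, 2640 were higher, 4030 at a fold of 2 and 796 with at least 1000 counts, and 1057 were lower, 2371 at a fold of 2, 614 at a fold of 8 and 570 with at least 1000 counts. With mean TPM, 1 of the 10 genes, MAP1B, was 2-fold apart between kits in A375, at 31.7 TPM with #634413 and 208 TPM with #634444. The latter value rested on 1 well at 3635 TPM that was not intact. The separation of CALD1 between all intact wells fell to 0 genes with TPM, all wells, or wells chosen by depth alone.

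Shares in A375 moved as follows. The TPM2 upstream exon share was 46.97% as a mean over wells, 28.4% by TPM, 55.6% with #634413 and 40.1% with #634444. The CALD1 long exon share was 18.2%, 12.5%, 10.6% and 19.1% in the same order. The ACTN1 81-base share was 71.7%, 69.3%, 72.2% and 84.7%. The ACTN4 81-base share was 99.99% as a mean over wells, 99.92% by TPM and 100% with #634413. The cause of these moves was not tested. No paired analysis was possible because each well is a single cell and replicate numbers only name wells.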
